A study of Mus musculus with 3 samples.

Results

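The 10 genes described here encode transcription factors of the primitive streak and early mesoderm: the T-box factors T (Brachyury), Eomes and Tbx6, the homeobox factors Mixl1, Gsc, Lhx1, Evx1 and Cdx1, and the bHLH factors Mesp1 and Mesp2. They were chosen by symbol from the 23421 genes of the table. RNA of E6.5 mouse embryos was sequenced in 3 libraries, 1 per genotype (wild type, tw18/+ and tw18/tw18). Heterozygous parents were intercrossed to obtain them, and the labels give the strain of all 3 as 129/SvEv. The study, however, proposes that non-inbred backgrounds that differ between embryos might underlie the variable mutant phenotype. tw18 is a t haplotype with a large deletion on Chr 17 that removes, among many other genes, Ppp2r1a, the gene of the PP2A scaffold subunit alpha. The tw18/+ embryos carry 1 deleted chromosome and the tw18/tw18 embryos carry no intact copy of the region. The labels name the tissue epiblast, whereas the study describes an embryo proper that includes the surrounding visceral endoderm, with the extra-embryonic portion kept for genotyping. It also describes the mutants as slightly younger than their littermates at this stage. The number of embryos per library is not given in the sources used here.

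Gastrulation begins when Nodal, WNT and BMP signals converge on the posterior side of the egg cylinder and epithelial cells there start to ingress through a streak. Cells that enter it activate T-box and homeobox factors, lose their epithelial character and leave as mesoderm or definitive endoderm, with Mesp1 and Mesp2 marking the earliest mesoderm. Eomes, Gsc and Lhx1 are also active in the visceral endoderm, Eomes in the extra-embryonic ectoderm as well, so that their RNA in an egg cylinder need not come from the streak.

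The promoters of T and Mesp2 are shown because these genes were among the most reduced members, and that of Evx1 because its level was nearly the same in all 3 libraries. Each is the 250 bases before the RefSeq start, on GRCm38.p6, read 5' to 3' on the gene's strand, at chr17:8434173-8434422 for T, chr7:79810477-79810726 for Mesp2 and chr6:52313248-52313497 for Evx1, all on the plus strand. Capitals mark the sites of the 3 motifs searched on both strands.
T: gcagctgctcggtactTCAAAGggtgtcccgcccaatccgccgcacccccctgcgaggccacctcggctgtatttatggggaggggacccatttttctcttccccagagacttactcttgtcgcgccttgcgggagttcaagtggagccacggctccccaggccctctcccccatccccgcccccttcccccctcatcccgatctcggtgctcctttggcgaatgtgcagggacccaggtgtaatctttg
Mesp2: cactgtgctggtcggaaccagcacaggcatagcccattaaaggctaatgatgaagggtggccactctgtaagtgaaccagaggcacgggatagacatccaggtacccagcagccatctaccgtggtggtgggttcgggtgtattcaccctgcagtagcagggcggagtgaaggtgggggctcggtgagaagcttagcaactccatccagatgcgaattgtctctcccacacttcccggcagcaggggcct
Evx1: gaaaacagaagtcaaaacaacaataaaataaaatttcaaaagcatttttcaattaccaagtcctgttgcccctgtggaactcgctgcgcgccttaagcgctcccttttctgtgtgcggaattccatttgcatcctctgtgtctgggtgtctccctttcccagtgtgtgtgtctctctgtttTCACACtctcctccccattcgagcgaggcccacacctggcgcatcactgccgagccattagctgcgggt
The motifs were CTTTGA, the core that TCF/LEF factors bind, TCACAC, the core of a T-box half-site, and AATNNACA, a FOXH1 site. CTTTGA was present in 13.8% of 32851 RefSeq promoters of this length, TCACAC in 12.3% and AATNNACA in 10.9%, and no base of the promoters examined lay in more than 1 motif. The T promoter held 1 CTTTGA, on the minus strand and 234 bases before the start, the Evx1 promoter held 1 TCACAC at 69 bases before the start, and the Mesp2 promoter held none of the 3. The Mesp1 promoter held 2 copies of CTTTGA, at 72 and 31 bases before the RefSeq start, which lies within the longer GENCODE gene. They are shown as 30-base windows on the minus strand of Chr 7, at chr7:79793645-79793674 and chr7:79793604-79793633.
Mesp1 site at 72 bases: ccctgctatggtTCAAAGggttcaggccct
Mesp1 site at 31 bases: ggctcgagccggCTTTGAtatgctgatgaa
None of the 3 motifs occurred in the windows of Eomes, Gsc, Lhx1 and Tbx6. Promoters were matched for 8 members. That of Mixl1 was not used here, and no promoter is shown for Cdx1. A match describes letters in a window and is not a binding site.

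With 1 library per genotype no difference has a replicate check, and no p-value is given. Values are the deposited FPKM, fragments scaled to transcript length in kilobases and to library size. A gene was counted as lower or higher when its FPKM differed by a log2 ratio of 1 or more between genotypes and the higher FPKM was at least 1. The depth was estimated from the FPKM of low-abundance genes with 1 transcript, which were whole multiples of a common step to within 0.1 for 71.8% to 73.9% of the 271 to 487 low values per library. It came to about 13800000 fragments for wild type, 19300000 for tw18/+ and 19100000 for tw18/tw18. Fragments per gene estimated in this way gave 95% Poisson intervals, which cover counting error only and not the difference between embryos. Ppp2r1a measured 146 FPKM in wild type, 81.7 in tw18/+ and 12.8 in tw18/tw18, in the order of the labelled genotypes, so that the deleted gene was not at 0 in the library labelled tw18/tw18.

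Of the 10 factors, 9 were listed above 0 in at least 1 library and 8 reached an FPKM of 1. In tw18/tw18 against wild type, 6 of these 8 were lower (T, Eomes, Mixl1, Mesp1, Mesp2 and Gsc), none was higher, and Lhx1 and Evx1 were between the thresholds. Among all 12917 genes past the same FPKM floor, 6.94% were lower and 15.1% were higher. In tw18/+ against wild type, T, Mesp1 and Mesp2 were lower, 3 of 8, beside 5.02% of 12426 genes. In tw18/tw18 against tw18/+, T, Mixl1 and Gsc were lower, 3 of the 6 past the floor, beside 5.65% of 12846 genes. The comparisons with wild type share that 1 library. The study itself drew several of these genes from the same libraries, so that the counts are not independent evidence of a direction.

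Levels descended from wild type through tw18/+ to tw18/tw18 for the same 6 genes, out of 8 that reached 1 FPKM in wild type. That order was found for 22.2% of all 11859 genes at this level. The members' median difference of log2(FPKM + 1) was -0.35 in tw18/+ and -1.28 in tw18/tw18, beside medians of 0.0042 and -0.0055 over the 13118 genes that reached 1 FPKM in some library. Cdx1 and Tbx6 did not reach it, and without them the members' medians were -0.58 and -1.70. Fewer cells that express a gene and less of its RNA per cell cannot be told apart in these libraries.

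**Figure D1:**
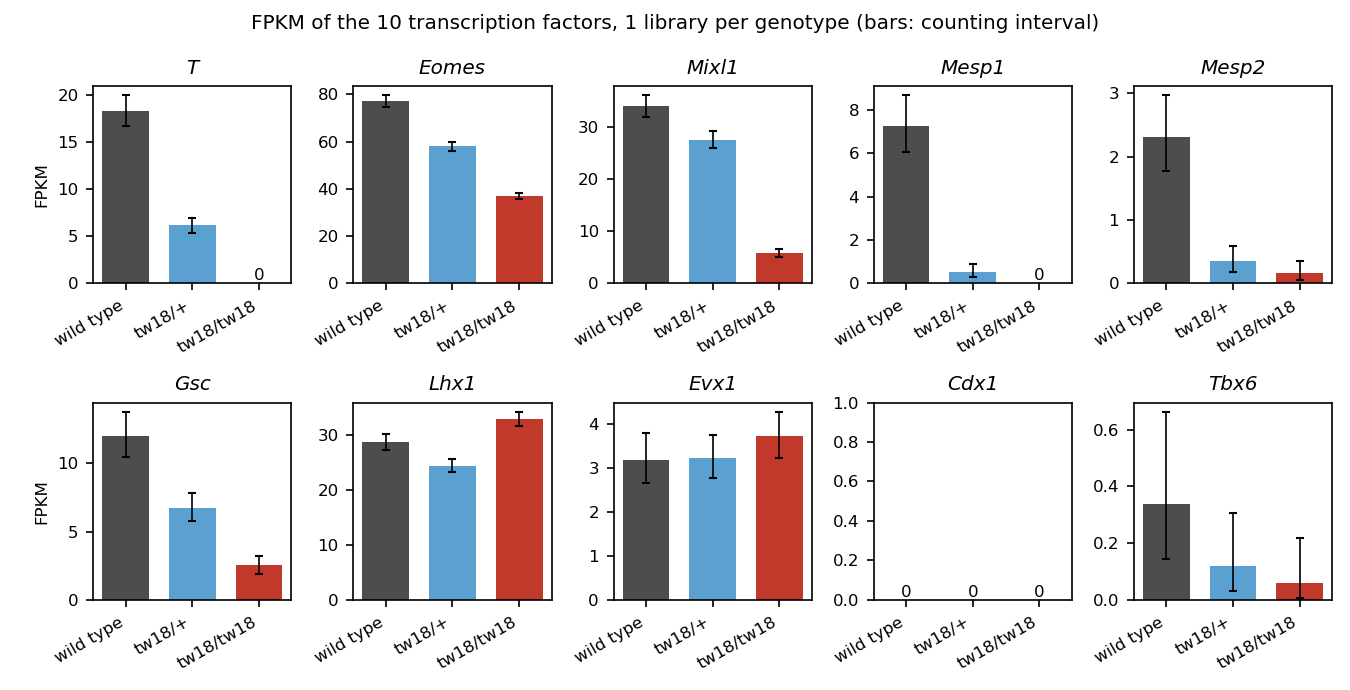
FPKM of the 10 transcription factors (vertical axis, linear, one scale per gene) in the wild-type, tw18/+ and tw18/tw18 library. Bars are 1 library each and error bars are 95% counting intervals from the estimated fragments; T and Mesp1 are listed at 0 in tw18/tw18, Cdx1 is at 0 throughout, and Lhx1 and Evx1 have their tallest bar in tw18/tw18.

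T, the T-box factor after which the family is named and a general marker of streak and nascent mesoderm, measured 18.3 FPKM in wild type, 6.16 in tw18/+ and was listed at 0 in tw18/tw18. These values correspond to about 516, 243 and 0 fragments. The tw18/+ level was 33.7% of wild type, a log2 ratio of -1.57 (95% counting interval -1.80 to -1.35). By in situ hybridization at E6.5 the study found T overlapping with Wnt3 in wild-type and tw18/+ embryos alike, which describes place and not level. It also describes the sequencing data of wild type and tw18/+ as highly similar. In tw18/tw18 a single fragment on T would have given an FPKM of 0.0255. No fold is given for the 0, because Lars2 and Cdk8, which reached 20 FPKM in both other libraries, were listed at 0 in the same library. On the log2(FPKM + 1) scale the difference from wild type was -4.27, a size that the pseudocount sets, since it was -7.52 with a pseudocount of 0.1. T lies on Chr 17 (GRCm38, 8434423 to 8442496, plus strand), the chromosome that carries the deletion, proximal to Ppp2r1a at 20945311 to 20965916. It is outside the interval that the study mapped as deleted. The study counts T among the genes of the t complex, the region whose variant form is a t haplotype. Whether the tw18 chromosome carries a variant form of T was not tested here.

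Eomes, the T-box factor required in the epiblast for cells to leave the streak and for definitive endoderm, was the most abundant member in every library, at 77.1 in wild type, 58.0 in tw18/+ and 37.0 in tw18/tw18. The tw18/+ library was lower than wild type by a log2 ratio of -0.41 (-0.48 to -0.35) and tw18/tw18 by -1.06 (-1.13 to -0.99), which is 48.0% of wild type. Its place among the lower genes was therefore close to the threshold. With each library rescaled to the same FPKM sum the log2 ratio was -0.85, and with centring on the epiblast genes it was -0.12. Of the 4150 words of 50 bp in its transcripts, 0.386% also occurred in another gene, whereas the other members shared none.

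Tbx6, a T-box factor of paraxial mesoderm that follows the streak stage, was near the detection limit in all libraries, at 0.338 in wild type, 0.121 in tw18/+ and 0.0608 in tw18/tw18, or about 8, 4 and 2 fragments. The log2 ratio to wild type was -1.48 (-3.67 to 0.41) in tw18/+ and -2.47 (-5.75 to -0.15) in tw18/tw18. The first interval spans 0, so that a difference was not detectable for tw18/+ at this depth.

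Among the homeobox genes, Mixl1, a streak factor that acts in mesoderm and endoderm formation downstream of Nodal, measured 33.9 FPKM in wild type, 27.5 in tw18/+ and 5.76 in tw18/tw18. The tw18/+ library lay close to wild type, with a log2 ratio of -0.30 (-0.42 to -0.18), and the tw18/tw18 library was lower than both. Against wild type the tw18/tw18 level was 5.88-fold lower, a log2 ratio of -2.56 (-2.76 to -2.36), and against tw18/+ the log2 ratio was -2.26 (-2.46 to -2.06).

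Gsc, a homeobox repressor of the anterior streak and its organizer, was at 12.03, 6.76 and 2.53 in wild type, tw18/+ and tw18/tw18. Its levels descended in clear steps, with log2 ratios to wild type of -0.83 (-1.14 to -0.53) in tw18/+ and -2.25 (-2.69 to -1.84) in tw18/tw18. The counting intervals of the 3 libraries did not overlap.

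Lhx1, a LIM-homeobox factor of the anterior streak, the nascent mesoderm and the anterior visceral endoderm, followed another pattern. Its FPKM was 28.8 in wild type, 24.4 in tw18/+ and 32.8 in tw18/tw18, so that the mutant library was the highest. The log2 ratio was -0.24 (-0.34 to -0.14) in tw18/+ and 0.19 (0.10 to 0.29) in tw18/tw18, and 0.43 (0.34 to 0.52) between both mutant genotypes.

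Evx1, a homeobox factor of the proximal posterior streak, was at 3.17 in wild type, 3.23 in tw18/+ and 3.72 in tw18/tw18. The log2 ratio to wild type was 0.02 (-0.32 to 0.36) in tw18/+, where rescaling to equal FPKM sums turned the sign, and 0.23 (-0.10 to 0.56) in tw18/tw18. Both intervals span 0 and stay within the threshold of 1 in either direction, but they cover counting error only. With centring on the epiblast genes the log2 ratio of Evx1 in tw18/tw18 was 1.16. The antisense gene Evx1os overlaps Evx1 and Gm33460 overlaps Eomes, and neither has a row in the table. Whether counting used strand is not given in the sources used here. Cdx1, a caudal-type homeobox factor that appears in the streak later and regulates Hox genes, was listed at 0 in all 3 libraries.

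Mesp1 and Mesp2 are bHLH factors encoded side by side on Chr 7, Mesp1 on the minus strand (79792241 to 79793788) and Mesp2 on the plus strand (79810727 to 79813439). They are switched on in the first mesoderm cells, Mesp1 ahead of heart and head mesoderm, and Mesp2 again later in the presomitic mesoderm. Mesp1 measured 7.26 FPKM in wild type, 0.530 in tw18/+ and was listed at 0 in tw18/tw18, or about 128, 13 and 0 fragments. The tw18/+ level was 7.29% of wild type (log2 ratio -3.78, -4.73 to -2.96), and in tw18/tw18 3 fragments would have given an FPKM of 0.123. No fold is given for the 0 of Mesp1, for the reason given for T.

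Mesp2 measured 2.32 FPKM in wild type, 0.348 in tw18/+ and 0.162 in tw18/tw18, or about 62, 13 and 6 fragments. It was lower than wild type by a log2 ratio of -2.74 (-3.73 to -1.86) in tw18/+ and -3.84 (-5.34 to -2.64) in tw18/tw18. The mutant genotypes were not separated from each other at this depth (-1.11, -2.79 to 0.39). The Mesp genes were thus the members with the largest log2 ratios between tw18/+ and wild type. On the FPKM scale their tw18/+ level was nearer to tw18/tw18 than to wild type, as was that of T, Gsc and Tbx6. The pair shared no word of 50 bp in their transcripts.

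**Figure D2:**
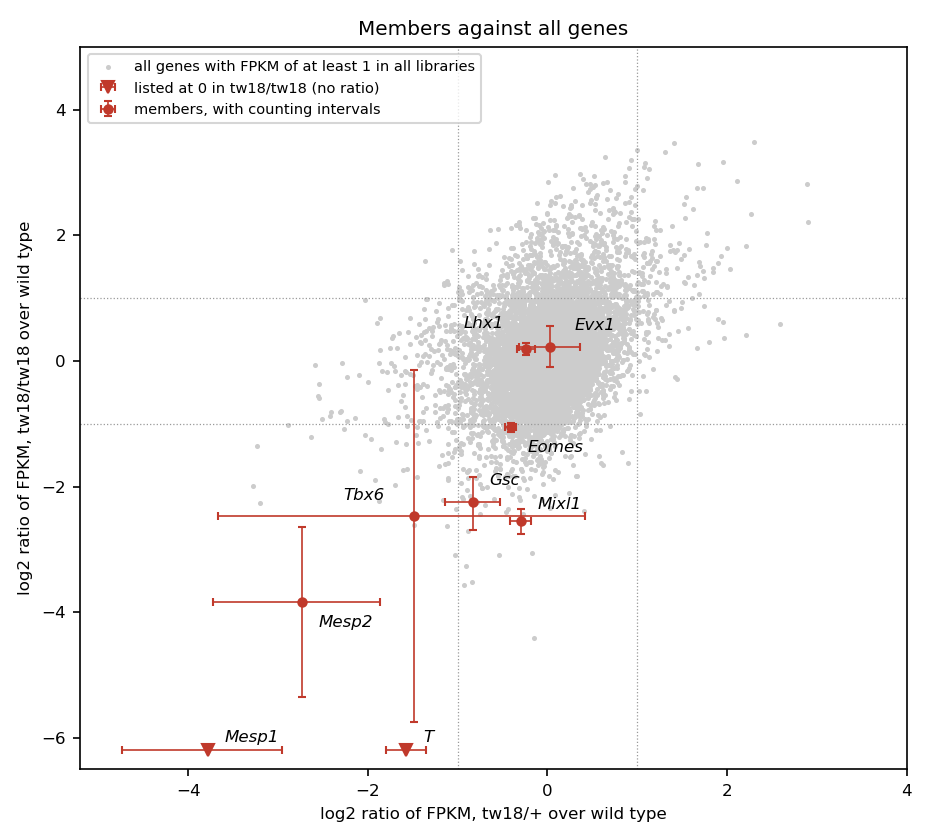
Log2 ratio of FPKM to wild type in tw18/+ (horizontal axis) and in tw18/tw18 (vertical axis), where both axes use the same wild-type library. Red points are members with 95% counting intervals, and triangles at the lower edge are members listed at 0 in tw18/tw18. Grey points are genes that reached 1 FPKM in each library and lie within the axes, and dotted lines mark log2 ratios of 1 and -1. Mesp1, Mesp2 and T lie left of most grey points, Mixl1 and Gsc below most of them, and Lhx1 and Evx1 among them. Some grey points lie farther left than T and Mesp2, and some lie below Mixl1 and Gsc.

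In the plot of log2 ratios, the threshold of 1 sorts the members past the FPKM floor into 3 kinds of pattern. Tbx6 is plotted but was below the floor and is in none of them. T, Mesp1 and Mesp2 were lower in the tw18/+ library and in the tw18/tw18 library. Mixl1, Gsc and Eomes passed the threshold in tw18/tw18 and not in tw18/+, where their log2 ratios were between -0.83 and -0.30. The counting interval of Gsc in tw18/+, -1.14 to -0.53, includes the threshold, and Eomes passed it only narrowly in tw18/tw18. Lhx1 and Evx1 passed it in neither. Over the 11069 genes that reached 1 FPKM in every library, the central 95% of the log2 ratios ran from -0.94 to 0.86 in tw18/+ and from -1.20 to 1.69 in tw18/tw18. T, Mesp1 and Mesp2 did not reach it in every library. Genes with values as low as theirs are therefore absent from this range and from the grey points. Whether the 3 patterns differ beyond the variation between embryos was not tested.

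The order of the levels changed with the genotype. In wild type it was Eomes, Mixl1, Lhx1, T, Gsc, Mesp1, Evx1, Mesp2 and Tbx6, with overlapping counting intervals only for Evx1 and Mesp2. In tw18/+ Gsc and T were next to each other with overlapping intervals, and Mesp1, Mesp2 and Tbx6 formed a group at the bottom whose neighbours overlapped. In tw18/tw18 it was Eomes, Lhx1, Mixl1, Evx1, Gsc, Mesp2 and Tbx6, with overlap for the last pair. Evx1, seventh in wild type, was thus above Gsc in tw18/tw18.

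The summed FPKM of the 10 members was 183 in wild type, 127 in tw18/+ and 82.1 in tw18/tw18. Eomes and Lhx1 together gave 57.8% of the sum in wild type, 64.8% in tw18/+ and 85.1% in tw18/tw18. The share of Lhx1 alone was 15.7%, 19.2% and 40.0%, while that of Mixl1 was 18.5%, 21.7% and 7.02%. The other 8 genes summed to 77.3, 44.7 and 12.2.

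**Figure D3:**
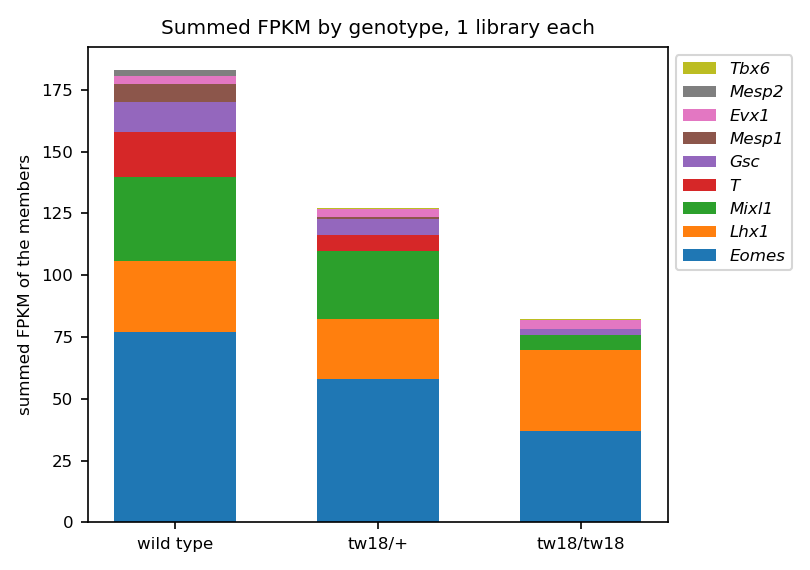
Summed FPKM of the members (vertical axis) in each genotype, 1 library each, stacked by gene. The stack is 183 in wild type, 127 in tw18/+ and 82.1 in tw18/tw18, and Eomes and Lhx1, at the base, make up 85.1% of the tw18/tw18 stack.

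The genes nearest to 3 of the members were sought among 8412 genes that reached 5 FPKM in wild type, by the Euclidean distance between their differences of log2(FPKM + 1) from wild type in both mutant genotypes, over 3 libraries. For T they were Ppp2r1a (distance 1.04), Zfp51 (1.23) and Zfp942 (1.42). All 3 lie on Chr 17 between 20945311 and 21962464, within the interval that the study mapped as deleted in tw18, whereas T lies outside it. Zfp51 was at 9.45, 3.23 and 0.261 in wild type, tw18/+ and tw18/tw18. For Eomes the nearest were Mettl22 (0.016), Vegfb (0.018) and Gm5801 (0.019), with Vegfb at 32.1, 23.9 and 15.3. For Mixl1 they were Hist1h2aa (0.19), Sox11 (0.29), an HMG-box factor, and Gm12669 (0.42), with Sox11 at 19.9, 14.7 and 3.88. The distances of T rest on its value of 0 and thus on the pseudocount.

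The signals that induce the streak did not move as 1 group. Of 12 signalling genes, 11 passed the FPKM floor in tw18/tw18 against wild type, of which 5 were lower (Tdgf1, Lefty2, Fgf8, Wnt3 and Wnt8a), 4 were higher (Wnt5a, Bmp4, Fgf4 and Fgf3) and 2 were between, with a median difference of -0.24. Tdgf1, the Nodal co-receptor Cripto, was at 74.5 in wild type, 72.0 in tw18/+ and 19.2 in tw18/tw18. Nodal itself was at 24.2, 25.7 and 17.1, and Fgf8, an FGF ligand needed for cells to move away from the streak, at 27.6, 20.9 and 10.1. Wnt3, the WNT ligand of the streak, was at 5.16, 3.38 and 2.54, and Lefty2, a Nodal antagonist of nascent mesoderm, was at 7.50, 4.004 and 0.784. Wnt5a was at 2.1997, 1.98 and 5.83, Fgf4 at 3.85, 3.92 and 7.76, and Bmp4, which the extra-embryonic ectoderm secretes, at 2.43, 1.09 and 5.78. Wnt3 and Fgf4 only just passed the threshold, with log2 ratios of -1.02 and 1.01 in tw18/tw18. The study calls Wnt3 not significantly dysregulated. In tw18/+ against wild type 9 of 11 were between the thresholds.

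Of 5 feedback targets of WNT signalling, 2 were lower in tw18/tw18 than in wild type, 1 was higher and 2 were between, with a median difference of -0.80. Axin2, an intracellular inhibitor of the pathway, was at 14.7, 13.8 and 5.50, and the streak factor Sp5 at 4.21, 3.59 and 1.02. Lef1 was at 27.8, 26.8 and 15.5, a log2 ratio of -0.84 that did not reach the threshold, and Nkd1 at 2.70, 1.79 and 1.80. The higher gene was Notum, at 0.359, 0.925 and 2.61.

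The other transcription factors of the streak differed from the members in their counts. Of 12 genes only 6 passed the floor, with 1 lower (Sp5), 2 higher (Tbx3 and Cdx2) and a median difference of 0. Snai1, the repressor of E-cadherin in the streak, was at 21.6 in wild type, 13.8 in tw18/+ and 17.3 in tw18/tw18. Foxa2, a factor of the anterior streak and visceral endoderm, was at 11.5, 10.7 and 11.7, and Sox17, an endoderm factor, at 4.74, 3.50 and 6.23. Cdx4, Evx2 and Noto were listed at 0 in every library.

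Among 14 further T-box genes 3 passed the floor in tw18/tw18 against wild type, of which Tbx3 (6.51, 5.05 and 13.5) and Tbx20 (1.25, 1.38 and 3.26) were higher and Mga (16.9, 19.3 and 18.5) was between. Tbx2 was at 0.976, 0.0437 and 0.673, below the floor. Of the 5 homeobox paralogs of the members, Cdx4, Evx2, Gsc2 and Lhx5 were listed at 0 in every library, and Cdx2, a trophoblast and streak factor, was at 0.473, 0.677 and 1.19.

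Genes listed here as products of nascent mesoderm were not lower as a group. Of 10 nascent mesoderm products, 9 passed the floor in tw18/tw18 against wild type. None was lower, 3 were higher (Pdgfra, Kdr and Rspo3) and the median difference was 0.64. Pdgfra, a growth factor receptor of mesoderm, was at 7.18 in wild type, 9.62 in tw18/+ and 31.6 in tw18/tw18, and Rspo3, a secreted enhancer of WNT signalling, at 1.81, 3.92 and 5.33. Cyp26a1, which degrades retinoic acid, was at 56.6, 59.6 and 85.4, Fst at 37.3, 30.2 and 53.5, Cxcr4 at 13.2, 12.9 and 25.6, and Cdh2 at 20.03, 20.95 and 24.34. The list is not restricted to mesoderm, since the study describes N-cadherin, the product of Cdh2, as uniform in the epiblast at E6.5. The counts of this list therefore do not show how much mesoderm had left the streak. The part of other tissues in these levels was not tested.

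Of 11 factors of lateral and extra-embryonic mesoderm, 7 passed the floor, of which 6 were higher in tw18/tw18 than in wild type (Hand1, Hand2, Gata2, Gata3, Tbx20 and Lmo2) and 1 was lower, with a median difference of 0.92. Hand2 was at 27.5, 16.3 and 63.0, Hand1 at 9.31, 14.0 and 34.6, Gata2 at 8.44, 8.08 and 19.8, and Gata3 at 1.89, 3.45 and 10.8. The lower gene was Etv2, an ETS factor of the first endothelial and blood progenitors, at 1.87, 1.98 and listed at 0 in tw18/tw18. Of 7 paraxial mesoderm factors 2 passed the floor, with Tcf15, a bHLH factor of somites, at 1.63, 1.06 and 0.280 and Lfng, a modifier of Notch receptors, at 1.40, 1.34 and 4.93. None of these factors was lower or higher in tw18/+ than in wild type. All 7 extra-embryonic ectoderm genes, 4 of 7 decidua genes and 2 of 5 endothelium genes were also higher in tw18/tw18. Of the decidua genes 2 were lower. The part of those tissues in the levels of the mesoderm factors was not tested.

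**Figure D4:**
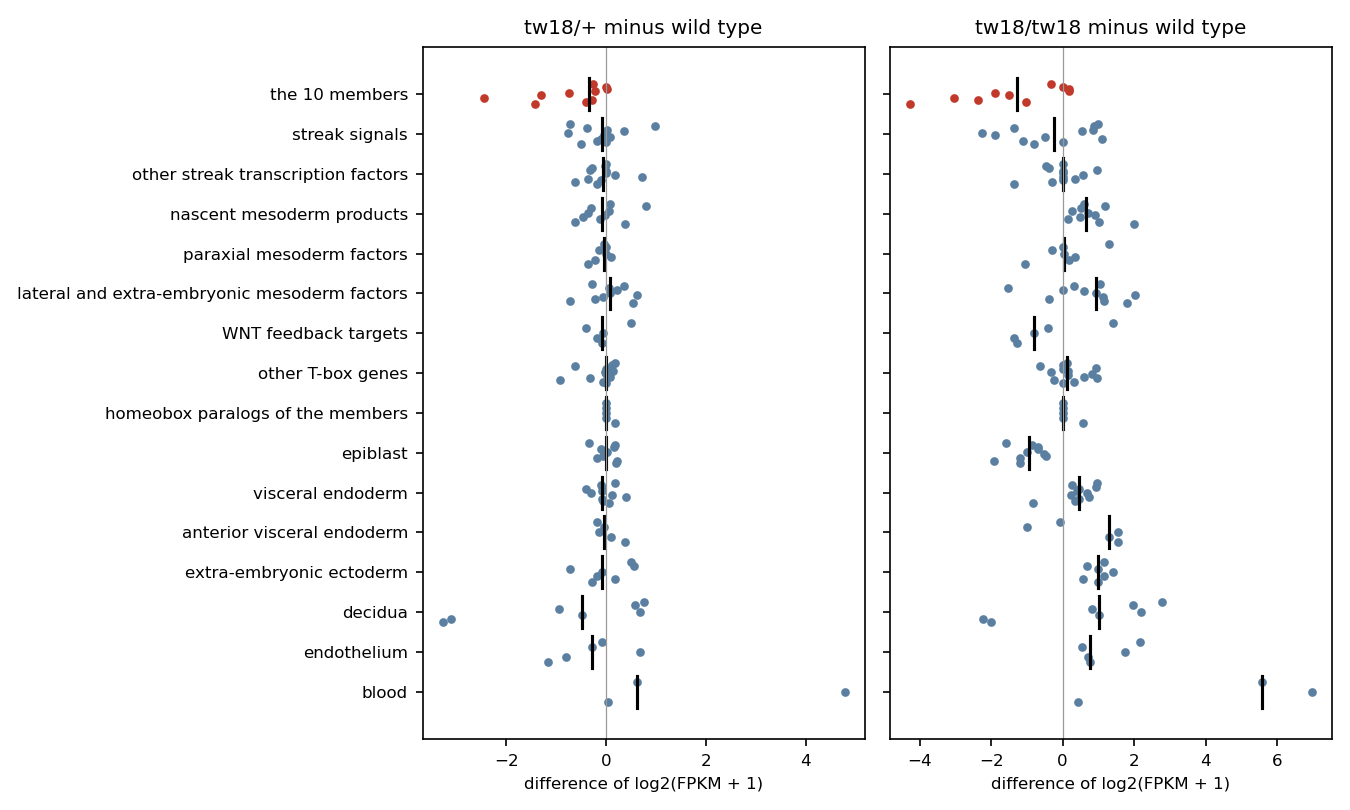
Differences of log2(FPKM + 1) from wild type (horizontal axis) in tw18/+ (left) and tw18/tw18 (right) for the 10 members (red) and the other gene lists (blue), 1 point per gene. Black bars are list medians; in tw18/tw18 the median is -1.28 for the members, -0.93 for epiblast genes and 0.998 for extra-embryonic ectoderm genes.

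Several lists of tissue markers differed between tw18/tw18 and wild type, as the plot of list differences shows. In tw18/tw18 against wild type, 5 of 10 epiblast genes were lower and none was higher, with a median difference of -0.93 and summed FPKM of 2168, 2322 and 1118 in wild type, tw18/+ and tw18/tw18. Pou5f1, the pluripotency factor OCT4, was at 628, 721 and 274, and Dnmt3b, a DNA methyltransferase of the epiblast, at 719, 733 and 359. The log2 ratio of Dnmt3b in tw18/tw18, -1.0005, only just passed the threshold. The other lower genes were Nanog (23.0, 27.1 and 5.35), Sox2 (13.0, 11.3 and 5.10) and Foxd3 (13.5, 10.4 and 3.78). All 7 extra-embryonic ectoderm genes were higher in tw18/tw18, with sums of 14.2, 13.6 and 39.2, and Elf5, a defining trophoblast factor, was at 1.93, 1.42 and 4.85 and Tfap2c at 6.36, 5.99 and 18.4. Of 11 visceral endoderm genes 1, Soat2 (14.1, 16.1 and 28.5), was higher and none was lower (sums 920, 908 and 1202), and Apoa1, the most abundant, was at 246, 233 and 337. Of 5 anterior visceral endoderm genes 3 were higher and 1 lower (sums 94.6, 106 and 199), with Cer1, a secreted Nodal antagonist, at 46.6, 61.3 and 140, Hhex at 7.16, 7.79 and 19.1, Hesx1 at 3.18, 2.78 and 11.3 and Lefty1 at 13.3, 12.9 and 6.11.

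Maternal and blood markers differed as well. Of 7 decidua genes, 4 were higher and 2 lower in tw18/tw18 than in wild type (sums 1737, 242 and 655). The sums mostly follow the decidual prolactin Prl8a2, at 1504, 155 and 377, which was lower together with Prl3c1 (121, 13.2 and 25.2). The higher genes were Hoxa10 (7.64, 11.8 and 32.9), Hoxa11 (3.67, 6.87 and 30.8), Pgr (5.08, 3.36 and 11.2) and Wnt4 (1.69, 3.32 and 11.2). Of 5 endothelium genes 2 were higher and none lower (sums 37.3, 21.7 and 77.0), with Eng at 2.72, 2.51 and 15.6. Of 3 blood genes both that passed the floor were higher (sums 0.286, 27.7 and 175), with the alpha-globin gene Hba-a2 at 0.0201, 26.9 and 127 and the beta-globin gene Hbb-bs at 0.018, 0.555 and 47.6. In tw18/+ against wild type no gene of the epiblast, visceral endoderm or anterior visceral endoderm lists was past the threshold. In the same comparison Prl8a2, Prl3c1, Bmp4 and the endothelial gene Pecam1 were lower, and Wnt7b, an extra-embryonic ectoderm gene, Tek, an endothelial gene, and Hba-a2 were higher. The part of these tissues and of the younger stage in the levels of the members and of the mesoderm genes was not tested. Tissues outside the streak are also known to express some members, among them Eomes, Gsc and Lhx1. With the epiblast genes centred at 0, Mixl1 had a log2 ratio of -1.62, Gsc -1.31, Eomes -0.12, Lhx1 1.13 and Evx1 1.16 in tw18/tw18. T and Mesp1 were listed at 0, which any scaling leaves at 0, so that centring gives no information on them.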

How the data were processed

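RNA-seq was carried out on 1 library per genotype, made with the TotalScript kit and read as 50 bp paired ends. The authors aligned reads to mm10 (GRCm38) and deposited 1 table of FPKM values from Cuffdiff. The submitters' processing notes name TopHat2, Bowtie 1.0.0 and Cufflinks 2.2.1, and the gene annotation is not given in the sources used here. FPKM is scaled by transcript length and library size, so that very abundant genes depress the values of all others.

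Ratios, medians and counts were computed in Python 3.11.15 using pandas 2.3.3, scipy 1.17.1 and numpy 2.4.6, and plots with matplotlib 3.10.9. Log2 ratios used no pseudocount; log2(FPKM + 1) served for medians and for genes listed at 0, and understates differences of low genes. Fragments were FPKM times the length of the longest RefSeq-linked transcript, or the longest where none was linked (GENCODE M21), divided by the estimated step, found on 3286 single-transcript genes, and intervals of ratios were exact binomial ones. Promoters came from RefSeq. The 10 members and the 15 gene lists were written with earlier results of these data known. Named from each list were at most 4 of its highest genes, those past a log2 ratio of 1 in tw18/tw18 against wild type with an FPKM of at least 5, and genes that make up a small count. Alternatives were the pseudocount, the FPKM floor, the threshold and 3 scalings. Nothing else from the study was analysed here.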

Additional observations from a re-analysis of the deposited data

How the results depend on the processing

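The calls were recomputed with other pseudocounts, FPKM floors and thresholds and with 3 other scalings. No paired analysis was possible because each genotype has 1 library, and for the same reason none could be left out. The count of members lower in tw18/tw18 than in wild type, 6, was 7 with no filter on low values, which added Tbx6, and 5 with a log2 threshold of 2, with equal FPKM sums and with centring on the epiblast genes. Eomes passed the threshold in none of those 3. The count lower in tw18/+, 3, stayed between 2 and 4. The count lower in tw18/tw18 than in tw18/+, 3, was 5 with no filter and 4 with an FPKM floor of 0.5, and 2 with a threshold of 2 and with centring on the epiblast genes, both of which lost Gsc. The median differences of the members stayed between -1.82 and -0.71 in tw18/tw18 and between -0.62 and -0.34 in tw18/+. The log2 ratio of Evx1 in tw18/+ changed its sign with equal FPKM sums. With a pseudocount of 0.1 the difference in tw18/tw18 was -7.52 for T and -6.20 for Mesp1. A pseudocount of 1 brought the log2 ratio of Mesp2 to -1.51 in tw18/tw18 and -1.30 in tw18/+, and that of Mesp1 in tw18/+ to -2.43. Centring on the epiblast genes added 0.93 to each log2 ratio of tw18/tw18 to wild type, equal sums 0.21 and the median of all genes 0.049. Depth limits Tbx6 and Mesp2, with 2 and 6 estimated fragments in tw18/tw18, and the number of embryos behind each library is not known here.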
